A study of Mus musculus with 12 samples.

Results

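The transcription factors that build the granulocyte were read in neutrophils of the injured liver and of the control spleen. The 8 factor genes, namely the 4 C/EBP genes Cebpa, Cebpb, Cebpd and Cebpe with Spi1, Gfi1, Runx1 and Klf2, were taken with Tmem189, a neighbour on the strand opposite to Cebpb. They were chosen by name, as the rows of the count table whose Ensembl identifier carries these symbols in the GRCm38 annotation (GENCODE vM21). That gave 9 of the 48709 genes in the table, and all 9 passed the filter on low counts that left 12488 genes to test. Neutrophils were sorted as Ly6G-high, Ly6C-intermediate, CD11b+ CD45+ cells from C57BL/6N male mice of 8 to 10 weeks. The control group was the spleens of untreated mice (3 libraries). The other groups were livers taken 24 hours (4 libraries) and 72 hours (5 libraries) after 1 intraperitoneal dose of carbon tetrachloride (CCl4, 1 mL/kg in corn oil), a hepatotoxin that kills hepatocytes around the central vein. Organ and injury changed together, since no library came from uninjured liver or from the spleen of an injured mouse, and livers were digested with collagenase whereas spleens were not. The effects of organ, injury and isolation cannot be told apart, and the 3 spleen libraries serve as reference for both liver groups.

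C/EBP proteins are basic leucine zipper factors that bind DNA as dimers and drive the granulocyte programme in succession. C/EBPα acts at the commitment of progenitors, C/EBPε at the stage when secondary granules are made, and C/EBPβ and C/EBPδ in mature or stimulated cells, where C/EBPβ supports emergency granulopoiesis. PU.1, the product of Spi1, is the ETS factor that opens myeloid enhancers, GFI1 is a zinc finger repressor that favours the granulocyte over the monocyte fate, RUNX1 is the core binding factor of blood formation, and KLF2 is a Krüppel-like factor that restrains inflammatory activation of myeloid cells. Tmem189 encodes a membrane enzyme that makes plasmalogen lipids and is no transcription factor.

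Cebpb and Tmem189 were read together because their exons share bases. Cebpb is a single exon of 1504 bases on the plus strand (chr2:167688915-167690418, GRCm38), with its coding sequence at 167689022 to 167689912. Tmem189 runs the other way (chr2:167642608-167689822, minus strand), and exon 1 of a non-coding transcript of it, which has 6 exons and 1837 bases, lies at 167689511 to 167689822. All 312 bases of that exon lie inside the Cebpb coding sequence, which is 20.74% of the Cebpb exon bases and 9.56% of those of Tmem189. The first line below is the stretch where the sharing begins (chr2:167689451-167689750, plus strand), with 60 bases of Cebpb alone in lower case and the first 240 shared bases in capitals. The next pair gives the last 40 shared bases (chr2:167689783-167689822) as each strand carries them, and shows that a read of this stretch belongs to one gene or the other by its strand alone. The last line is the Cebpb promoter from RefSeq (chr2:167688665-167688914, GRCm38.p6, plus strand), with capitals marking TGACG on either strand, the core bound by CREB and ATF factors.
Cebpb at the start of the shared bases: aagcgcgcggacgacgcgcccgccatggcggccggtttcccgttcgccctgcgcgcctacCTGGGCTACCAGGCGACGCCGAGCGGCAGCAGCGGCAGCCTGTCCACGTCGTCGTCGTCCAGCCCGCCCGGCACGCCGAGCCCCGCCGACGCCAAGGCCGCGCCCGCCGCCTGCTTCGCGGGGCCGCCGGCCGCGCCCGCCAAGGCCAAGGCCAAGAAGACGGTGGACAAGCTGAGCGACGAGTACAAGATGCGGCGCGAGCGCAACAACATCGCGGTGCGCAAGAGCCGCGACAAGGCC
Cebpb at the end of the shared bases: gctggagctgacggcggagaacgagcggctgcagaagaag
Tmem189 transcript from its first base: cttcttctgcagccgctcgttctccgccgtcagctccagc
Cebpb promoter: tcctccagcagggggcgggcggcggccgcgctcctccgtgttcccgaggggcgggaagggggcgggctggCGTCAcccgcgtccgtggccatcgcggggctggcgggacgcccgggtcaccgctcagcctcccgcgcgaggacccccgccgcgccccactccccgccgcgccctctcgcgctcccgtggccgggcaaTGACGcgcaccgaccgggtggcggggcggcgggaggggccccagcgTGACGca

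The promoter printed for Cebpb held 3 matches to TGACG in the 250 bases before the annotated start, and 17.8% of the 32851 mouse promoters in the RefSeq table held at least 1 over the same length. The C/EBP motif TTNNGCAA, searched on both strands like the others, had no match there and was present in 9.6% of all promoters. No match was found either for AGGAAGT, the PU.1 motif (7.7% of promoters), TGTGGT, the RUNX motif (14.0%), or AAATC, the GFI1 core (32.7%). CCACCC, a Krüppel-like factor motif, had 1 match and was present in 28.1% of promoters. A match is a string of letters and not a measured binding site.

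**Figure D1:**
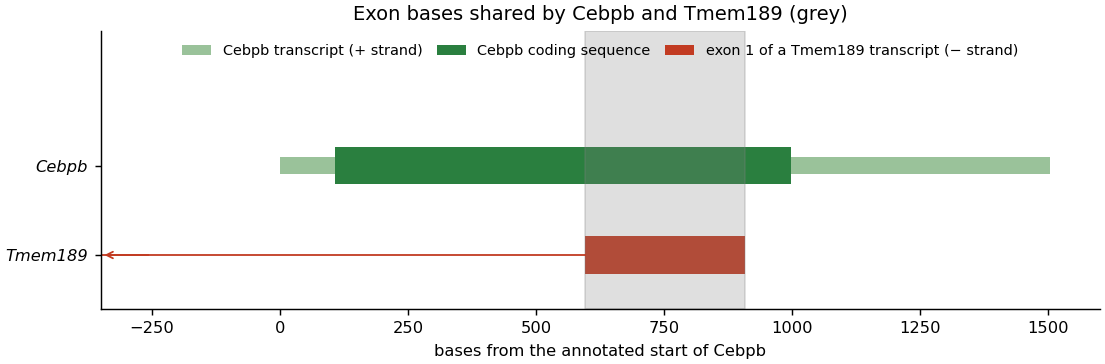
Exons of Cebpb (plus strand, green, the coding sequence taller) and exon 1 of the Tmem189 transcript (minus strand, red, the arrow pointing to its other exons), by distance in bases from the annotated start of Cebpb. The grey band marks the 312 shared bases, all within the Cebpb coding sequence.

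The libraries held between 1267089 and 3017403 gene counts, and levels below are these counts scaled to library size with TMM factors (CPM, the usual scale of RNA sequencing that divides by depth). Uniquely aligned reads fell on a gene in 2.71% to 3.18% of cases, and Cebpa, Cebpe, Runx1 and Gfi1 were counted in few reads. The library kit keeps the strand of the RNA, but the strand option of the counting was not given in the sources used here, so counts on a gene with an exon on the opposite strand may hold reads of either gene. All 10 neutrophil markers listed were detected in each group (summed CPM of 1907 to 7424 in spleen, 1176 to 2819 at 24 hours and 2129 to 2810 at 72 hours). Hepatocyte markers summed to 2.32 to 6.11 CPM in spleen, 14.9 to 20.2 at 24 hours and 3.24 to 22.9 at 72 hours. Most of it was Apoa2 (means of 3.90, 16.9 and 6.34), and Alb was at 0.121, 0.718 and 3.07. Ttr, Tat and Cps1 had 0 counts in all libraries. The 10 macrophage markers summed to 106 to 164 CPM in spleen, 140 to 212 at 24 hours and 127 to 194 at 72 hours, most of it Csf1r (means of 92.8, 141 and 137), with C1qa and Clec4f at 0 throughout. The 8 endothelial markers summed to 30.6 to 74.0, 34.1 to 69.3 and 44.9 to 68.3 CPM, most of it Clec4g, with Cdh5 and Kdr at 0, and the 8 B cell markers to 47.5 to 59.8, 35.4 to 71.4 and 34.4 to 50.7 CPM, most of it Cd79a. The part of such cells in the results was not tested. A few libraries stood apart. Spleen replicate 3 had 208 CPM of the granule gene Ltf against 1712 and 1637 in the other spleen libraries, and 72-hour replicates 2 and 3 had 1.91% and 1.98% of reads unaligned against 49.6% to 50.7% elsewhere. Called differences that moved by more than 1.5-fold or changed side without these libraries are given both ways. Spleen replicates 1 and 2 were the most alike of all pairs within a group. The chi-square per degree of freedom between their counts was 2.47, against 6.72 to 41.3 for the other pairs. Whether these spleen libraries are independent samples was not tested, and the spread of the spleen group rests partly on them. In such bulk samples fewer cells of a kind and less RNA per cell cannot be told apart, and the labels do not say that each library was 1 mouse, so the tests measure the spread between libraries.

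Cebpb was higher in each liver library than in any spleen library. Its level was 132, 129 and 138 CPM in the 3 spleen libraries, from 285, 357 and 430 counts. At 24 hours it was 951, 767, 1111 and 933 CPM in replicates 1 to 4, and at 72 hours it was 750, 1059, 1318, 479 and 998 CPM in replicates 1 to 5. The spleen libraries lay close together, and the liver libraries were all above them, with the lowest at 72 hours.

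Tmem189 moved with it, at a far higher level. It stood at 2411, 2239 and 2514 CPM in spleen, at 17070, 14380, 19200 and 18950 CPM at 24 hours, and at 9380, 15890, 18400, 7962 and 17530 CPM at 72 hours. It ranked 38 to 48 among all genes by counts in the spleen libraries and 3 to 11 in the liver libraries, which puts the row of a lipid enzyme gene among the most counted of these neutrophils. The 72-hour replicates 1 and 4 were the lowest liver libraries for both genes.

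The counts of Cebpb and Tmem189 kept a narrow ratio. Cebpb counts were 5.48% to 5.78% of Tmem189 counts in spleen, 4.92% to 5.79% at 24 hours and 5.69% to 8.00% at 72 hours, so Tmem189 had 12.5 to 20.3 times as many. The highest share, 8.00%, was in 72-hour replicate 1, and the spleen and 24-hour ranges overlapped. Over the 12 libraries the log2 levels of the 2 genes had a Pearson correlation of 0.989. This is a description only, since the points share the libraries, their depth and the group differences, and the genes share exon bases.

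**Figure D2:**
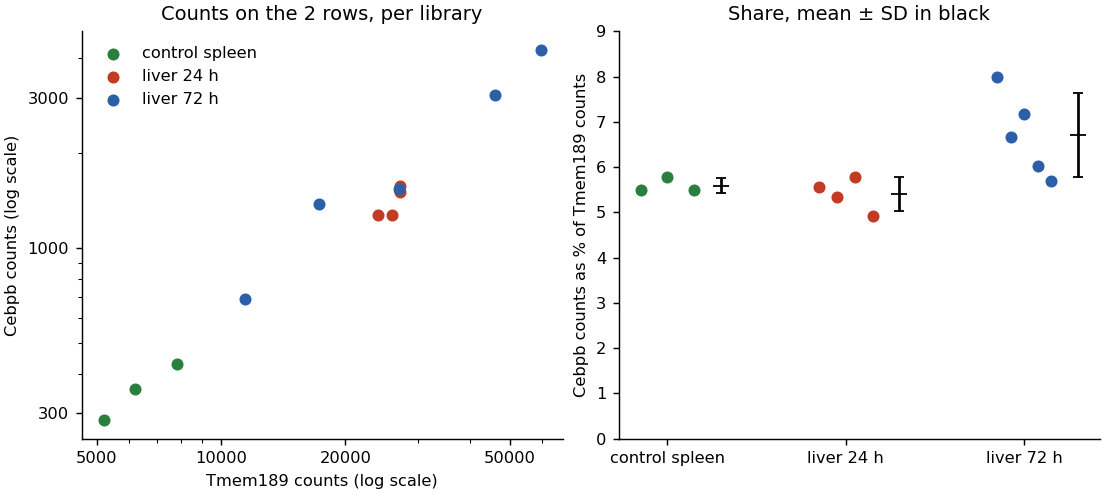
Left, Cebpb counts against Tmem189 counts in each of the 12 libraries (both axes logarithmic); right, Cebpb counts as a percentage of Tmem189 counts in each library, with group mean ± SD in black. Counts on both genes rise from spleen (green) to liver (red, 24 hours; blue, 72 hours), while the share stays between 4.92% and 8.00%.

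Cebpd had the highest counted level per kilobase of exon among the factor genes in spleen. It was at 509, 523 and 810 CPM in spleen, at 880, 899, 1082 and 991 CPM at 24 hours, and at 793, 712, 845, 850 and 784 CPM at 72 hours. The 24-hour libraries all lay above the others, and spleen replicate 3 lay with the 72-hour libraries rather than with the other spleen libraries.

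Cebpe, whose protein is needed for secondary granules, went the other way. It was at 39.4, 33.7 and 9.97 CPM in spleen, at 1.26, 8.40, 2.12 and 1.46 CPM at 24 hours, and at 15.2, 7.60, 3.71, 0 and 1.30 CPM at 72 hours. The 24-hour libraries were all below the spleen libraries, while 72-hour replicate 1 was above spleen replicate 3. In spleen replicate 3 the low Cebpe went with low counts of secondary granule genes, with Ngp at 339 CPM against 1895 and 1891 and Camp at 8.04 against 170 and 175. Across the 72-hour libraries that order did not hold. Replicate 1, with the most Cebpe (28 counts), had 2.71 CPM of Ltf (5 counts), and replicate 4, with no Cebpe count, had 13.9 (20 counts). These values rest on few counts, and a link between Cebpe and the granule genes was not tested.

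Cebpa, the earliest C/EBP of the lineage, was counted in few reads. It was at 12.1, 5.80 and 17.0 CPM in spleen, at 4.42, 5.40, 2.83 and 0.730 CPM at 24 hours, and at 5.96, 6.22, 4.33, 13.9 and 5.84 CPM at 72 hours. The 24-hour libraries were below all spleen libraries, narrowly so for 24-hour replicate 2 and spleen replicate 2, and the 72-hour libraries overlapped both.

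Spi1 was at 136, 105 and 58.5 CPM in spleen, at 69.4, 109, 51.6 and 77.3 CPM at 24 hours, and at 120, 125, 118, 76.4 and 109 CPM at 72 hours. The groups overlapped throughout, and spleen replicate 3 was again the lowest of its group. Klf2 was at 79.8, 68.9 and 74.6 CPM in spleen, at 170, 133, 134 and 149 CPM at 24 hours, and at 100, 102, 77.7, 113 and 163 CPM at 72 hours. For Klf2 the 24-hour libraries were all above the spleen libraries, and at 72 hours replicate 3 was within the spleen range.

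Runx1 was at 8.81, 6.89 and 10.3 CPM in spleen, at 6.31, 11.4, 30.4 and 17.5 CPM at 24 hours, and at 19.0, 26.3, 27.2, 9.73 and 15.6 CPM at 72 hours. Liver libraries spread wider than spleen libraries, and the highest at 72 hours were replicates 2 and 3. Gfi1 was close to undetected, with 9, 5 and 2 counts in spleen, with 8 counts in 24-hour replicate 3 and 0 in replicates 1, 2 and 4, and with 0, 0, 2, 2 and 1 counts at 72 hours. All 5 of the 72-hour libraries were under a floor of 3 counts, a limit that covers counting error only.

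**Figure D3:**
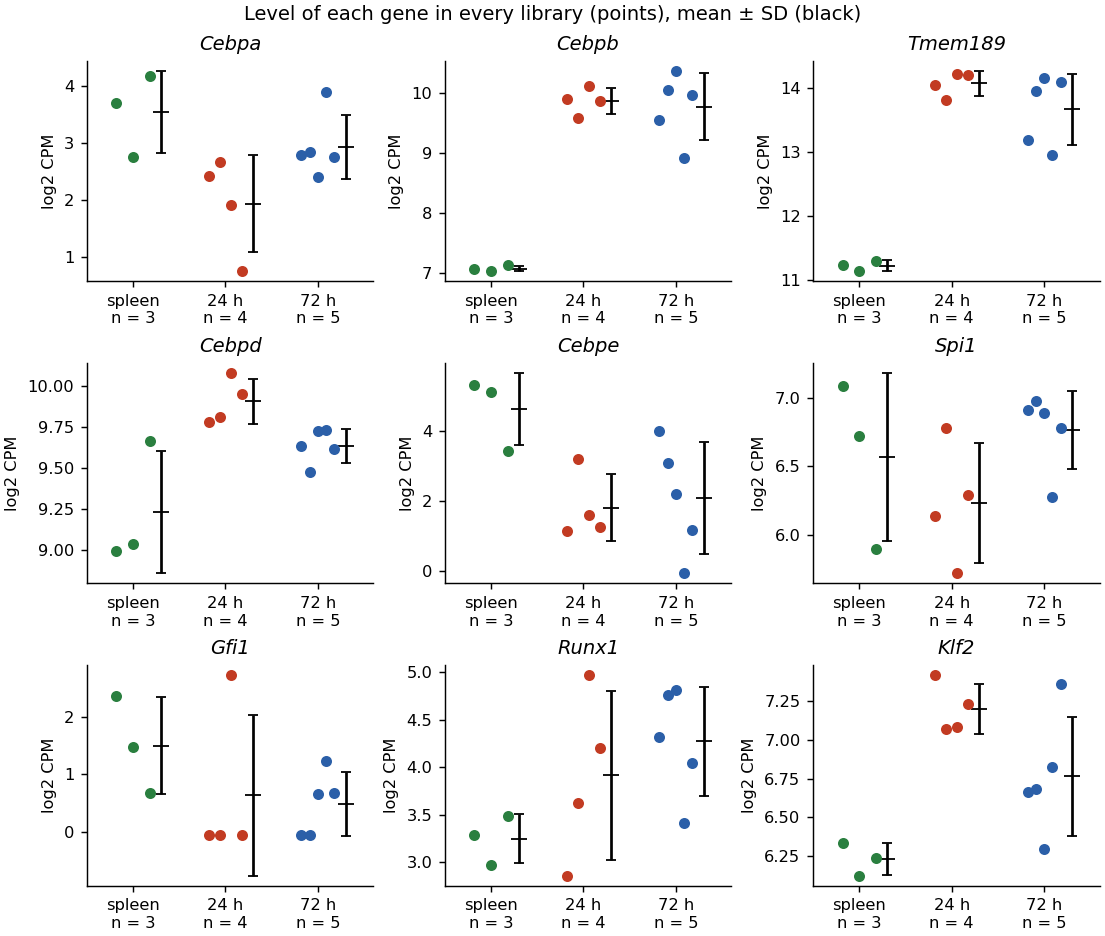
Level of each of the 9 genes as log2 CPM (prior count 2, a separate vertical scale per gene) in every library of control spleen (n = 3, green), liver at 24 hours (n = 4, red) and liver at 72 hours (n = 5, blue), with mean ± SD in black. Cebpb and Tmem189 separate liver from spleen at both times, and Cebpe is low in most liver libraries.

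The question of the first comparison was how neutrophils that reach the liver 24 hours after injury differ from those of the control spleen. Cebpb was 7.05 times higher (log2 fold change 2.82 ± 0.29 SE, edgeR adjusted p = 1.98e-06) and Tmem189 7.29 times higher (2.87 ± 0.27, adjusted p = 7.60e-07). Klf2 rose 1.97-fold (0.98 ± 0.26, adjusted p = 0.0170) and Cebpd 1.57-fold (0.65 ± 0.21, adjusted p = 0.0488). Cebpe was 7.98 times lower (−3.00 ± 0.77, adjusted p = 0.0148), with 2, 14, 3 and 2 counts at 24 hours, so the size of its fall is uncertain. The other 4 genes were not called. Cebpa had a log2 difference of −1.76 ± 0.58 and an adjusted p of 0.0563, Runx1 of 0.90 ± 0.47 (adjusted p = 0.228), Spi1 of −0.37 ± 0.30 (adjusted p = 0.460) and Gfi1 of −0.63 ± 1.26 (adjusted p = 0.796).

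To be called, a gene needed an adjusted p under 0.05 and a log2 difference of 0.5 or more in size. By that rule 4 of the 9 genes were higher and 1 was lower at 24 hours, where 5.35% of all genes tested were called higher and 4.40% lower. Over the 9 genes the median log2 fold change was 0.65, and over all genes tested it was −0.23. Tmem189 and Cebpb share exon bases, so the 2 are not independent entries in that count. The ranking by adjusted p put Tmem189 at place 6 and Cebpb at place 10 of 12488 genes.

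Cebpb and Tmem189 were called in all 12 fits that left out 1 library, with log2 fold changes of 2.73 to 2.90 and 2.81 to 2.94 at 24 hours. The other 24-hour calls were less firm. Klf2 lost its call without spleen replicate 1 (adjusted p = 0.0569) or 2 (0.0874), and Cebpe lost it likewise (0.0776 and 0.0594) and also without 24-hour replicate 1 (0.0501). Cebpd was called in 3 of the 12 fits, those without spleen replicate 3 or 72-hour replicate 4 or 5, and its adjusted p reached 0.214 in the others. Without spleen replicate 3, the library that stood apart, the log2 differences were 0.90 ± 0.21 for Cebpd (adjusted p = 0.00654) and −3.40 ± 0.76 for Cebpe (adjusted p = 0.00498). The Cebpe difference ranged from −4.06, without 24-hour replicate 2, to −2.66, without spleen replicate 1. Cebpa passed the threshold in the fit without 72-hour replicate 4 (adjusted p = 0.0451).

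The second comparison set neutrophils of the repair phase, 72 hours after injury, against the same spleen libraries. Cebpb was 6.91 times higher (2.79 ± 0.28, adjusted p = 1.63e-06) and Tmem189 5.79 times higher (2.53 ± 0.26, adjusted p = 2.18e-06). Cebpe was 4.79 times lower (−2.26 ± 0.66, adjusted p = 0.0469), although its groups overlapped and its 72-hour libraries had 0 to 28 counts. That made 2 of 9 genes higher and 1 lower, where 2.63% and 2.71% of all genes were called in those directions. The median log2 fold change was 0.38 over the 9 genes and −0.02 over all genes tested.

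The other 6 genes were not called at 72 hours. Runx1 had a log2 difference of 1.19 ± 0.45 (adjusted p = 0.145), Klf2 of 0.57 ± 0.24 (0.212), Cebpd of 0.38 ± 0.20 (0.348), Gfi1 of −2.03 ± 1.25 (0.455), Cebpa of −0.72 ± 0.51 (0.532) and Spi1 of 0.14 ± 0.28 (0.884). The 95% interval of the Spi1 difference ran from −0.41 to 0.70 on the log2 scale, so a moderate change of PU.1 transcript in either direction was not excluded. The Gfi1 value depends on the prior count, because the 72-hour libraries were at the floor. Taken at 3 counts per library, its 72-hour level would be 1.45-fold below the spleen mean. Spleen replicate 3, at 2 counts, was itself under that floor, and the groups overlapped. The 95% interval of the Gfi1 difference ran from −4.48 to 0.42 on the log2 scale, so no decrease was established.

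Cebpb and Tmem189 were again called in all 12 fits with 1 library left out, between 2.62 and 2.95 and between 2.41 and 2.68 on the log2 scale. The Cebpe call was kept in 3 of those fits, without spleen replicate 3, 24-hour replicate 2 or 72-hour replicate 1, and its adjusted p reached 0.248 without spleen replicate 1. Its difference ranged from −2.95, without 72-hour replicate 1, to −1.92. Without 72-hour replicates 2 and 3 together, 2 of the 9 genes were called, Cebpb and Tmem189, and Cebpe had an adjusted p of 0.200. Cebpb was then at 2.48 ± 0.26 and Tmem189 at 2.28 ± 0.25, and the uncalled Runx1 difference was 0.77 ± 0.50 (adjusted p = 0.642).

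The third comparison asked whether the 2 waves of liver neutrophils differ from each other. None of the 9 genes was called between 72 and 24 hours by edgeR, limma-voom or DESeq2, where edgeR called 1.65% of all genes tested higher and 2.84% lower at 72 hours. At an unadjusted edgeR p under 0.05 there were 0 of the 9 genes and 20.9% of all genes tested. The closest were Spi1 at 0.51 ± 0.26 (unadjusted p = 0.0653, adjusted p = 0.272), Cebpa at 1.04 ± 0.55 (adjusted p = 0.284) and Klf2 at −0.40 ± 0.22 (adjusted p = 0.301). For Cebpb the difference was −0.03 ± 0.23, with a 95% interval of −0.47 to 0.41, and for Tmem189 it was −0.33 ± 0.21, with an interval of −0.75 to 0.09. Without 72-hour replicates 2 and 3 they were −0.34 ± 0.23 (adjusted p = 0.501) and −0.58 ± 0.22 (adjusted p = 0.201). Cebpd was lower at 72 hours in all 5 libraries than in any 24-hour library, by −0.27 ± 0.18 on the log2 scale (adjusted p = 0.399). Cebpe differed by 0.74 ± 0.75, Runx1 by 0.29 ± 0.40 and Gfi1 by −1.40 ± 1.27. The calls of Klf2 and Cebpd at 24 hours and not at 72 hours are thus no evidence of a difference between the 2 times.

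**Figure D4:**
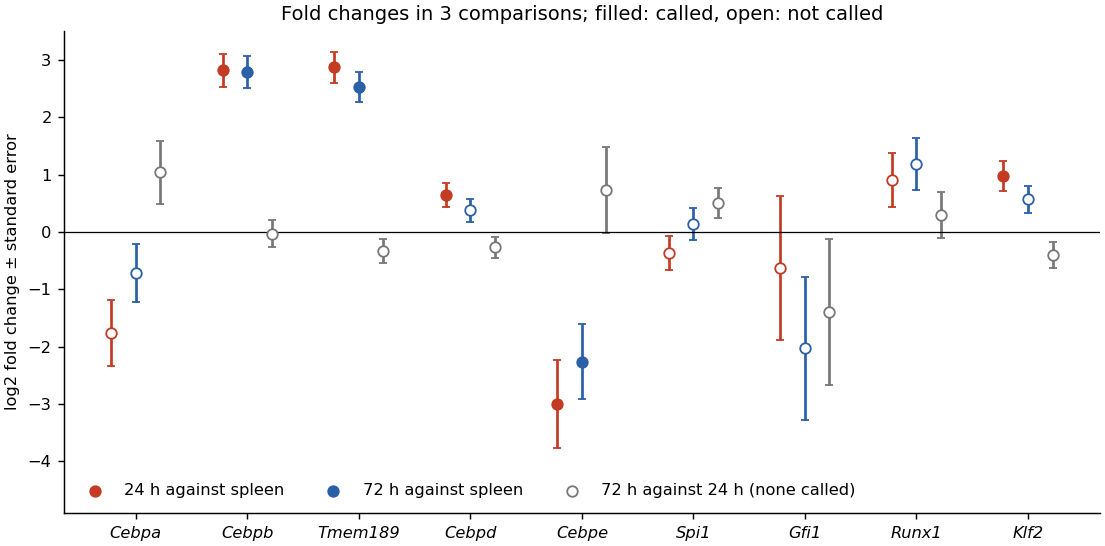
Log2 fold change ± standard error of each gene from edgeR for 24 hours against spleen (red), 72 hours against spleen (blue) and 72 against 24 hours (grey). Filled points were called (5, 3 and 0 of 9 genes), and both liver comparisons use the same spleen libraries.

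Ordered by level per kilobase of exon, the factor genes kept much the same rank in the 3 groups. In spleen the order was Cebpd at 164 ± 45.3 CPM per kb (SD, n = 3), Cebpb at 88.6 ± 3.01, Klf2 at 40.3 ± 2.96, Spi1 at 37.0 ± 14.4, Cebpe at 22.3 ± 12.6, Cebpa at 4.41 ± 2.14, Runx1 at 0.721 ± 0.142 and Gfi1 at 0.694 ± 0.565, all below Tmem189 at 732 ± 42.6. The ranges of Klf2 and Spi1, of Spi1 and Cebpe and of Runx1 and Gfi1 overlapped, and the other neighbours in that order did not. At 24 hours Cebpb (625 ± 93.4 CPM per kb, n = 4) stood above Cebpd (257 ± 24.8), with Klf2 at 79.3 ± 9.21 and Spi1 at 28.5 ± 8.93 next, and the 4 lowest genes, Cebpe, Runx1, Cebpa and Gfi1, overlapped their neighbours between 0 and 6.77. At 72 hours Cebpb was at 612 ± 212 CPM per kb (n = 5), Cebpd at 213 ± 14.9, Klf2 at 60.1 ± 17.1 and Spi1 at 40.7 ± 7.22. There Klf2 and Spi1 overlapped, and so did Cebpe, Cebpa and Runx1. Cebpb thus exchanged places with Cebpd in both liver groups, and its coefficient of variation was 3.41% in spleen, 14.9% at 24 hours and 34.6% at 72 hours. The order is one of counts. Cebpb and Cebpd share exon bases with Tmem189 and Spidr on the opposite strand, and their counts may hold reads of those genes.

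Of the factor genes 5 share exon bases with a gene on the opposite strand, and in 3 of them that gene was counted more often than the factor in all 12 libraries. Beside Tmem189 these were Gm26626, an antisense RNA that shares 106 bases with Runx1 and had 4.42 to 25.7 counts per Runx1 count, and Gm45091, which shares 51 bases with Cebpa and had 1.61 to 27.0 counts per Cebpa count. Gm26626 was called higher at 24 hours (1.71 ± 0.30, adjusted p = 0.000773) and at 72 hours (1.12 ± 0.28, adjusted p = 0.0185), at 49.9 ± 11.6 CPM in spleen, 163 ± 54.3 at 24 hours and 109 ± 20.9 at 72 hours. Its 24-hour call was kept in all 12 fits with 1 library left out. At 72 hours the call ended when spleen replicate 1 or 2 or 72-hour replicate 2 was omitted (adjusted p up to 0.142), and also without 72-hour replicates 2 and 3 together (0.92 ± 0.30, adjusted p = 0.146). Runx1, on the other strand of that place, had positive differences in both comparisons that missed the threshold. Gm45091 was not called (−0.76 ± 0.40 at 24 hours and −0.59 ± 0.38 at 72 hours, adjusted p = 0.230 and 0.476).

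The Cebpd neighbour Spidr, which encodes a scaffold of DNA repair, shares 562 bases with Cebpd and was the only one of these partners counted less than its factor in all libraries, with 0.117 to 0.439 counts per Cebpd count. Its differences were −0.27 ± 0.31 at 24 hours (adjusted p = 0.622) and 0.06 ± 0.30 at 72 hours (adjusted p = 0.959), and its log2 level did not follow Cebpd over the 12 libraries (Pearson correlation −0.192, as a description). A430072P03Rik, which shares 101 bases with Gfi1, had 0 to 10 counts. Cebpe, Spi1 and Klf2 share no exon base with a gene on the opposite strand. A fit on the 7485 genes of that kind called Cebpe (−2.90 ± 0.70, adjusted p = 0.00798) and Klf2 (1.11 ± 0.29, adjusted p = 0.0150) at 24 hours. That fit leaves out annotated overlaps only, and whether the counts of any factor gene came from its own strand was not tested.

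**Figure D5:**
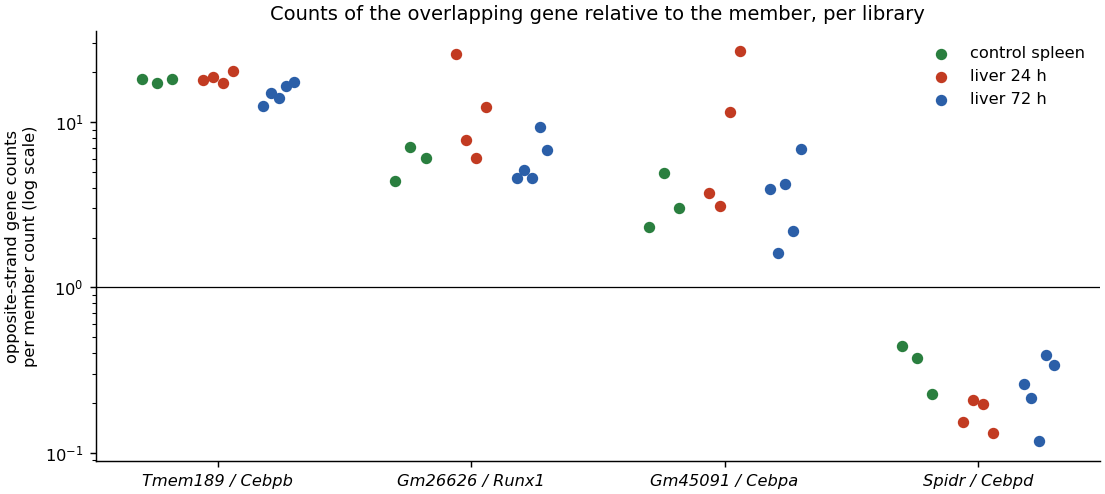
Counts on the opposite-strand gene per count on the factor gene in each library (logarithmic axis, the line at 1 marks equal counts), for 4 pairs that share exon bases; the Gfi1 pair is left out because it has zeros. Tmem189 stays 12.5 to 20.3 times above Cebpb in all groups, and Spidr stays below Cebpd.

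Each gene was set beside the 2 genes whose log2 level over the 12 libraries was most like its own, with partners on the opposite strand left out. Cebpb lay closest to Cxcl2, which encodes a chemokine that attracts neutrophils (Pearson correlation 0.977), and to Tctex1d4 (0.976). Tmem189 lay closest to Pnrc1 (0.971) and Gm26885 (0.967), Cebpd to Mkrn2 (0.946) and Gm9917 (0.928), Klf2 to Orc4 (0.938) and Rap1b (0.931), and Cebpe to Nucb2 (0.916) and Mpc2 (0.891). For Spi1 they were Ppil2 (0.925) and Syf2 (0.909), for Runx1 Gm42725 (0.948) and Plgrkt (0.946), for Cebpa Rfx7 (0.931) and Rsrp1 (0.922), and for Gfi1 Fam131b (0.953) and Gm16026 (0.865). These are the highest of 12488 correlations over the same 12 libraries and the same group differences, and are given as descriptions.

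Beyond the 9 genes, a wider set of lineage factors was counted. Of 72 other factors in 6 lists (partners and regulators of C/EBP, ETS and IRF factors, relatives and corepressors of GFI1, RUNX factors and partners, KLF factors and other myeloid factors), 51 were tested. Of these, 4 were called higher and 2 lower at 24 hours, 2 higher and 2 lower at 72 hours, and 0 between the liver groups. Over all genes tested 5.35% were higher and 4.40% lower at 24 hours, and 2.63% and 2.71% at 72 hours. Between the liver groups the shares were 1.65% higher and 2.84% lower at 72 hours. The median log2 fold changes of the 51 factors were −0.19, 0.16 and 0.12, against −0.23, −0.02 and 0.18 over all genes tested. None of the 18 tested genes of the list of other myeloid factors was called in any comparison, and none of the 4 tested RUNX factors and partners. At these shares, lists so short can hold no called gene without differing from other genes.

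Among the ETS factors, Ets2, which Ras and MAP kinase signalling activates, rose at 24 hours (1.88 ± 0.44, adjusted p = 0.00861) and at 72 hours (3.03 ± 0.44, adjusted p = 0.000155), at 11.5 ± 2.85 CPM in spleen, 42.8 ± 10.3 at 24 hours and 94.1 ± 56.0 at 72 hours. Ets1 fell at both times (−2.11 ± 0.50, adjusted p = 0.00963, and −2.11 ± 0.46, adjusted p = 0.00582). Gabpa fell at 24 hours (−1.07 ± 0.33, adjusted p = 0.0409) and Erg at 72 hours (−2.90 ± 0.74, adjusted p = 0.0213). Trib1, a pseudokinase that targets C/EBPα for degradation, rose at 24 hours (0.94 ± 0.29, adjusted p = 0.0424) and 72 hours (1.06 ± 0.28, adjusted p = 0.0254). Zeb2, a zinc finger repressor (1.30 ± 0.25, adjusted p = 0.00187), and Klf7 (1.79 ± 0.42, adjusted p = 0.00861) rose at 24 hours. The groups overlapped for Klf7, with 24-hour replicate 3 at 12.7 CPM and the spleen libraries at 10.5 to 13.2. Exons on the opposite strand cover 397 bases of Gabpa, 653 of Zeb2 and 3200 of Klf7.

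Of these calls, those of Ets2 at 72 hours and Zeb2 at 24 hours were kept in all 12 fits with 1 library left out. Ets2 at 24 hours was lost without spleen replicate 1 (adjusted p = 0.0544), and without spleen replicate 2 the calls of Klf7 (0.0508) and of Ets1 at 24 hours (0.0735) and 72 hours (0.0792) were lost. Erg was lost in 3 fits, without spleen replicate 1 or 2 or 72-hour replicate 1 (adjusted p up to 0.209). Gabpa was lost without spleen replicate 1 or 2 or any one 24-hour library (up to 0.171). Trib1 was kept in 4 of 12 fits at 24 hours, those without 24-hour replicate 1 or 72-hour replicate 3, 4 or 5, and in 6 at 72 hours, those without any one 24-hour library or 72-hour replicate 4 or 5, with adjusted p up to 0.119 and 0.108 otherwise. Without 72-hour replicates 2 and 3 together, at 72 hours Ets2 was at 2.38 ± 0.40 (adjusted p = 0.00113), Erg at −4.17 ± 1.03 (0.0299) and Trib1 at 0.87 ± 0.31 (0.189, not called). Without spleen replicate 3 Trib1 was not called, at 0.82 ± 0.32 at 24 hours (adjusted p = 0.103) and 0.94 ± 0.31 at 72 hours (0.0764).

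Genes known as targets of these factors were counted in 2 lists. Of 12 cytokine receptors and myeloid surface genes, Cd14, the lipopolysaccharide co-receptor, rose at 24 hours (3.59 ± 0.59, adjusted p = 0.000458) and 72 hours (3.48 ± 0.58, adjusted p = 0.000536), and Cybb, the catalytic subunit of the phagocyte oxidase, fell (−2.39 ± 0.39, adjusted p = 0.000453, and −3.37 ± 0.37, adjusted p = 7.76e-06). The other 10 were not called against spleen. That is 1 gene in each direction at each time, where 5.35% and 4.40% of all genes were called higher and lower at 24 hours and 2.63% and 2.71% at 72 hours. Csf3r, the receptor of the granulocyte growth factor G-CSF, was higher at 72 than at 24 hours (0.77 ± 0.19, adjusted p = 0.0241), a call lost without 24-hour replicate 1, 3 or 4 or 72-hour replicate 1 or 3 (adjusted p up to 0.0702). Without 72-hour replicates 2 and 3 together Csf3r was not called (0.64 ± 0.21, adjusted p = 0.121), and Cd14 at 72 hours was at 2.44 ± 0.47 (adjusted p = 0.00441). Without spleen replicate 3 Cybb was at −2.77 ± 0.34 at 24 hours and −3.75 ± 0.33 at 72 hours, and remained called. Of 9 granule genes 7 were tested, and 4 fell at 24 hours and 5 at 72 hours, with 0 higher, where 4.40% and 2.71% of all genes tested were called lower. Ltf fell by 9.07 and 7.56 on the log2 scale (adjusted p = 5.90e-08 and 6.36e-08) and Ngp by 5.56 and 7.12 (adjusted p = 2.34e-05 and 8.28e-07). Without spleen replicate 3 the values were −9.57 and −8.08 for Ltf and −6.02 and −7.60 for Ngp. Camp was at or under 3 counts in each liver library, at least 58.9-fold lower than in spleen at 24 hours and at least 77.2-fold lower at 72 hours, or at least 86.3-fold and 113-fold without spleen replicate 3. Elane, a primary granule gene of immature cells, had 0 counts in all libraries, while Prtn3 of the same list had 0 to 17. The 10 immature neutrophil markers listed, Elane among them, summed to 1300 to 2137 CPM in spleen. The sums were 968 to 1303 at 24 hours and 983 to 1523 at 72 hours, most of it Mki67 (means of 1128, 1035 and 1186). Cd177 (295, 73.0 and 23.8) and Chil3 (160, 5.59 and 4.00) were lower in liver. Top2a was at 5.58, 0.158 and 0.248 CPM and Fcnb at 3.74, 0 and 0. Prtn3 was at 1.38, 5.02 and 1.43, and Elane, Mpo, Ctsg and Ms4a3 had group means of at most 0.354. The sum thus rested mainly on Mki67, at a level that Top2a of the same list did not share. Whether the cells were dividing or immature was not tested.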

How the data were processed

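Per the labels, RNA was made into stranded mRNA libraries, and the submitters' processing notes name STAR 2.7.9a and GRCm38. The authors assigned reads to genes with HTSeq-count (strand option not stated) and deposited raw counts for 12 libraries, without normalization. The 5 summary rows entered neither library sizes nor tests: 2.71% to 3.18% of uniquely aligned reads were on genes. The RNA integrity limit differs between the study's methods and the labels.

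Counts were analysed in R 4.3.3. Genes over 1 CPM in at least 3 libraries were kept, TMM factors computed, and 3 comparisons made by edgeR 4.0.16 (quasi-likelihood F-test, 12 libraries fitted together), with Benjamini-Hochberg adjustment over 12488 genes. The script was tested on simulated data. Log2 CPM used a prior count of 2, and levels per kb the merged exons of GENCODE vM21, in which 48349 identifiers matched. Promoters were found for 5 of the 9 genes. The members, lists and tests were chosen with earlier results of these data known. Named were the 9 genes, genes overlapping their exons, the 2 most similar genes of each, and per list and comparison up to 3 called genes with the smallest adjusted p. Elane, Prtn3, the immature neutrophil markers named and the granule genes given for single libraries were chosen after their values were seen. Alternatives were DESeq2 1.42.0 (size factors, Wald test), limma-voom (limma 3.58.1), upper-quartile scaling, other filters and limits, fits of 2 groups, a replicate block, genes without opposite-strand exons, and leaving out libraries.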

Additional observations from a re-analysis of the deposited data

Results flagged for a closer look

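Of 29 groups of 4 or 5 libraries checked for a library far from the others, 4 were flagged, and chance flags about 1 in 20 such groups. Gfi1 in 24-hour replicate 3 had a log2 CPM of 2.73, from 8 counts, where the other 24-hour libraries had 0 counts. In the same library Gfi1 counts were 267% of those of A430072P03Rik on the opposite strand, against 0% in the others. Spi1 in 72-hour replicate 4 had a log2 CPM of 6.27, against 6.78 to 6.98 in the other 72-hour libraries. The 24-hour replicate 4 had 0.227% of uniquely aligned reads marked ambiguous between genes, against 0.0209% to 0.0255% in the other 24-hour libraries. It also had the lowest Cebpb counts relative to Tmem189 of all 12 libraries, 4.92%, while in CPM of either gene it was not the extreme 24-hour library. Its part in the results was not tested beyond leaving it out, which kept 4 of the 5 calls at 24 hours.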

How the results depend on the processing

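The numbers of the 9 genes called, 5 at 24 hours, 3 at 72 hours and 0 between the liver groups, were 4, 3 and 0 with a replicate block. In deviations from their group means, same-numbered libraries correlated between −0.12 and 0.13 over 10 pairs. By the same measure 2 of 12 libraries correlated best with their own number. No pairing by number was detected, though so few pairs cannot exclude one. Among genes with no exon on the opposite strand, which leaves 3 of the 9 to test by construction, 2 and 1 were called, and with a limit of 1 on the log2 fold change 3 were called at 24 hours. Leaving out 1 library gave 2 to 6 calls at 24 hours (2 without spleen replicate 1 or 2, 3 without 24-hour replicate 1), 2 to 3 at 72 hours and 0 to 0 between liver groups. Cebpa was also called at 24 hours by the DESeq2 Wald test (adjusted p = 0.0385), with no filter (0.0368) and with filterByExpr (0.0470). Cebpd was not called with no filter (0.0928), in a fit of 2 groups (0.0560) or with the block (0.0626). Cebpe at 72 hours was not called with filterByExpr (0.0622) or in a fit of 2 groups (0.0649). Signs turned only for uncalled differences. Runx1 between liver groups was −0.13 without 72-hour libraries 2 and 3, and with 1 library left out Gfi1 at 24 hours ranged from −5.26 to 0.17, Spi1 at 72 hours from −0.13 to 0.43, Cebpb between liver groups from −0.19 to 0.13 and Gfi1 between liver groups from −1.95 to 3.22. The cause was not tested. Over all genes, 1218, 666 and 561 were called, and with DESeq2's Wald test 951 between liver groups. Without spleen replicate 1 or 2 the counts were 575 and 611 at 24 hours and 322 and 314 at 72 hours. Between liver groups they were 182 and 252 without 24-hour replicate 1 or 2, and 309, 371 and 244 without 72-hour replicate 1, 2 or 3. Without 72-hour libraries 2 and 3 they were 287 at 72 hours and 197 between liver groups, and among genes with no opposite-strand exon 552, 360 and 143. Upper-quartile scaling gave 157 genes higher and 457 lower between liver groups, against 206 and 355. With the longest transcript as length, Spi1 passed Klf2 in spleen, and Runx1 passed Cebpe at 24 hours and Cebpa at 72 hours. Depth limits Gfi1, Cebpa, Runx1 and Cebpe, at 0 to 93 counts per library.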
